A study of Mus musculus with 435 samples.

Results

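The genes described here are 8 members of the Notch pathway in somatic cells of the fetal mouse testis: the receptors Notch1, Notch2 and Notch3, the ligand Jag1, the target genes Hes1, Hey1 and Heyl, and Nrarp, a target that feeds back on the pathway. They were chosen by name among the 16459 genes of the deposited values, and all 8 are listed there. RNA was sequenced from single cells of XY gonads that carried the Nr5a1-eGFP reporter, on a mixed strain background, and that had been sorted for green fluorescence with a dye that leaves out dead cells. Nr5a1 encodes a transcription factor that marks the somatic lineage of the gonad and steroid-making cells. The cells came from embryonic stages (E, in days) E10.5, before the testis forms, E11.5, E12.5, when testis cords are present, E13.5 and E16.5. There was no treated or mutant group, so stages and cell groups are compared with each other, and no library without the reporter was analysed here.

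Cells were captured on microfluidic chips in 9 captures, 1 at E10.5 and 2 at each later stage, and the capture was taken as the replicate. The labels do not tie captures to embryos, so p-values measure the spread between captures, which may be technical. In all 396 cells were kept: E10.5 gave 59, E11.5 gave 93, E12.5 gave 67, E13.5 gave 112 and E16.5 gave 65. The depth implied by the values had a capture median of 7.83 to 8.10 M reads in the E10.5 and E13.5 captures, labelled 25 M reads, and of 2.20 to 3.24 M reads in the others, labelled 10 M reads. Run and stage therefore cannot be told apart, except between E13.5 and E10.5 and among the stages of the shallower run. The first E13.5 capture was made on a medium chip and the others on small chips.

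Notch receptors sit in the membrane of the receiving cell and are switched on by ligands of the Jagged and Delta families on a neighbouring cell. Binding leads to cleavage by an ADAM protease and by gamma-secretase, and the freed intracellular part enters the nucleus, where it joins the DNA-binding protein RBPJ and turns on HES and HEY genes, which encode repressors. In the fetal testis the pathway is known for keeping part of the interstitial cells as progenitors of Leydig cells, the cells that make androgens, and for acting in Sertoli cells on the germ cells that they surround. It is also a main pathway of endothelial and perivascular cells.

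Of the 8 genes, 5 had an entry in the RefSeq promoter table of build GRCm38.p6: Notch1, Notch2, Notch3, Jag1 and Nrarp. Each entry covers 250 bases before to 50 bases after the start that RefSeq gives. For Notch1 that window, chr2:26503773-26504072, lies inside the gene as GENCODE M21 draws it, away from its outer end. The promoters of 3 of them are printed because the results turn on these genes: Notch2 was the receptor found in most cells, Notch3 the receptor that differed between cell groups, and Jag1 the ligand. Capitals mark the GC box GGGCGG, read on the other strand as CCGCCC, and CACGNG, read there as CNCGTG, the letters of a class C site known to be bound by HES and HEY repressors.
Notch2 promoter, GRCm38.p6 chr3:98013288-98013587, plus strand: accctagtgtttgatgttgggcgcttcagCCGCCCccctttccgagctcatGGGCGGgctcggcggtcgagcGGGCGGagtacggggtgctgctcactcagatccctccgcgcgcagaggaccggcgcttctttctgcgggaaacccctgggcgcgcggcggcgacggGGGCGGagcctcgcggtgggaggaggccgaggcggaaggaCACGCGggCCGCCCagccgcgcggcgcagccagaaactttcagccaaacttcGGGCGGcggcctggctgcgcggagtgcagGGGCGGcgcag
Notch3 promoter, GRCm38.p6 chr17:32166841-32167140, minus strand: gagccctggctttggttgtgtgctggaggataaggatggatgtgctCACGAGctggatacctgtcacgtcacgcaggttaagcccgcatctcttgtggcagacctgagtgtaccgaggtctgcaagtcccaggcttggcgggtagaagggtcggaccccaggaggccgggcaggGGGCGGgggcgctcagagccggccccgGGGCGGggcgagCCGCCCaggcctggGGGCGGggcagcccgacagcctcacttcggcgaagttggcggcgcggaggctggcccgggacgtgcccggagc
Jag1 promoter, GRCm38.p6 chr2:137116471-137116770, minus strand: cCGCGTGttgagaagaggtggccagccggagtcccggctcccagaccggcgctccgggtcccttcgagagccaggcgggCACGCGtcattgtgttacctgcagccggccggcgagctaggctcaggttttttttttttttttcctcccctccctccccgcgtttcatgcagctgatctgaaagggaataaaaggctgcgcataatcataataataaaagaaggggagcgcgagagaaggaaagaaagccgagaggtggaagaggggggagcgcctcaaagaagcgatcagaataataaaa
The GC box occurred 7 times in the Notch2 window, 4 times in that of Notch3 and 0 times in that of Jag1. Of the 5 members with an entry, Notch1 included, 4 held a GC box, against 35.7% of the 32851 promoters of the table, and 4 held CACGNG, against 27.5%. The core TGGGAA, on the other strand TTCCCA, bound by RBPJ, was in 0 of the 5, and 25.6% of all promoters hold it. The Notch2 window was 73% G or C, that of Notch3 70% and that of Jag1 55.7%, with a median of 52.7% over all promoters. Such matches describe these windows only.

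The genes lie apart in the genome (GENCODE M21, build GRCm38). Notch1 spans chr2:26457903-26516663, Nrarp chr2:25180758-25183339, Jag1 chr2:137081456-137116644, Notch2 chr3:98013527-98150361, Hey1 chr3:8663359-8667256, Heyl chr4:123233556-123249875, Hes1 chr16:30064384-30067796 and Notch3 chr17:32120820-32166852. All 8 are protein-coding. The deposited values are RPKM, reads scaled to gene length and to sequencing depth, so levels can be compared between genes.

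Levels differed widely among the members. As the mean over the 9 captures, Notch2 had 19.5 ± 7.24 RPKM, Jag1 12.4 ± 10.48, Hes1 10.54 ± 3.997, Heyl 9.95 ± 9.01, Hey1 3.55 ± 3.72, Notch3 2.64 ± 1.999, Notch1 0.800 ± 0.456 and Nrarp 0.532 ± 0.859 (SD, n = 9 captures). Each neighbouring pair in this order differed by less than the larger of its SDs. Detection per cell gave a different order. Notch2 reached 1 RPKM in 367 of 396 cells (92.7%), Hes1 in 282 (71.2%), Jag1 in 144 (36.4%), Notch3 in 111 (28%), Heyl in 71 (17.9%), Hey1 in 49 (12.4%), Notch1 in 45 (11.4%) and Nrarp in 7 (1.77%).

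The rarer genes were concentrated in few cells. The 10 highest of the 396 cells held 99.9% of the summed Nrarp RPKM, 62% for Hey1, 60.5% for Notch1, 51% for Heyl and 47.1% for Jag1, against 31.2% for Notch3, 21.7% for Hes1 and 13.4% for Notch2. A capture mean of such a gene follows its few high cells, and in a capture mean fewer cells with the RNA and less RNA per cell cannot be told apart. Shares of cells are therefore given beside the means.

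**Figure D1:**
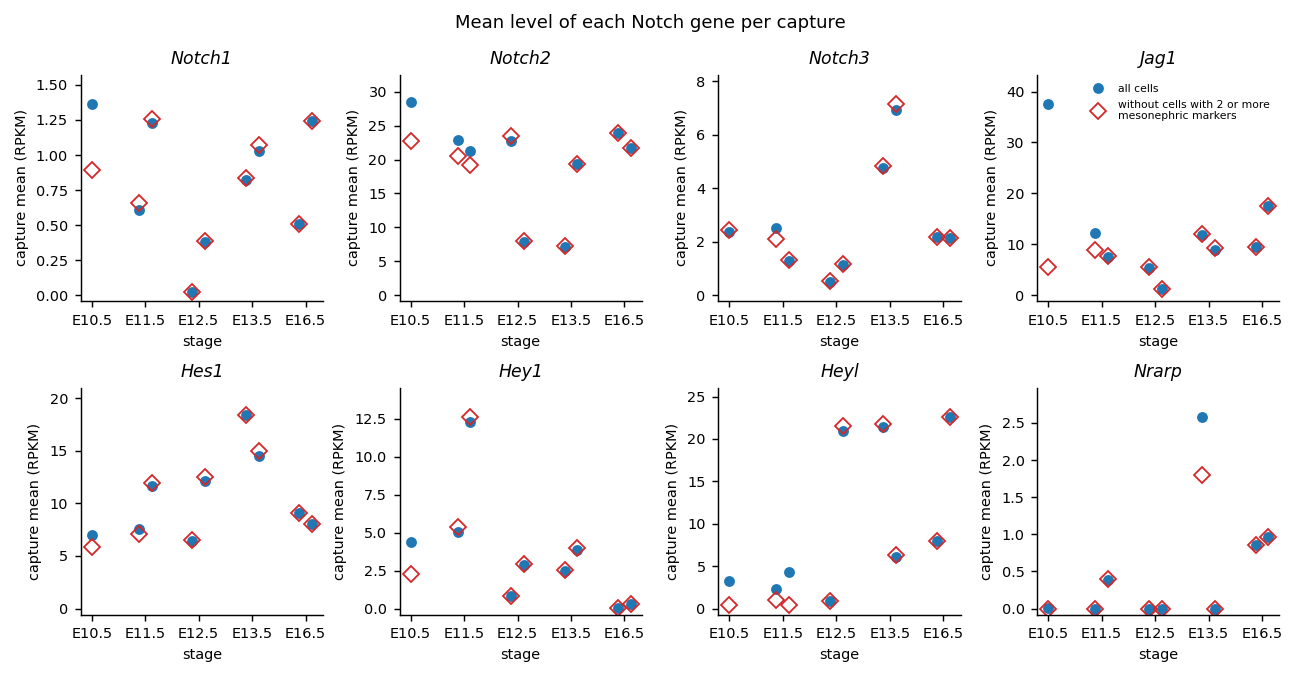
Capture mean in RPKM (y axis, linear, own scale per gene) by stage (x axis), 1 panel per gene; filled circles are means over all kept cells of a capture, open diamonds the means without cells that have 2 or more mesonephric markers at 1 RPKM. Jag1 at E10.5 is 37.6 RPKM with all cells and 5.52 RPKM without them, while Hey1 is lowest in the E16.5 captures.

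**Figure D2:**
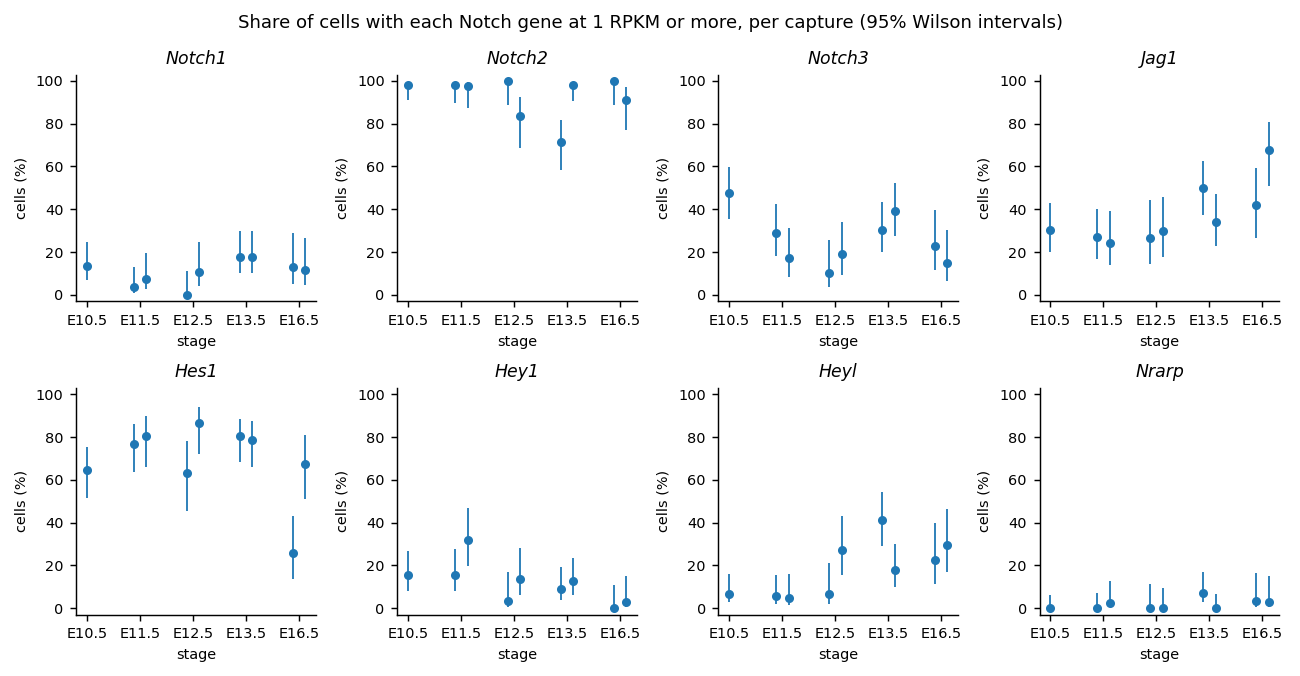
Share of cells at 1 RPKM or more (y axis, percent) by stage (x axis), 1 point per capture with its Wilson 95% interval, which covers counting error only. Notch2 lies between 71.4% and 100% in every capture, and Heyl is between 4.88% and 6.78% in the E10.5 and E11.5 captures and in the first E12.5 capture.

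Notch2, the receptor with the highest level, was found in nearly all cells at every stage. By capture, Notch2 averaged 28.5 RPKM (E10.5), 22.9 and 21.3 (E11.5), 22.8 and 7.91 (E12.5), 7.10 and 19.3 (E13.5), and 24 and 21.8 (E16.5). The second E12.5 and the first E13.5 capture were low and the partner capture of the same stage was not, so stages overlapped. The share of cells at 1 RPKM was 71.4% in the first E13.5 capture (Wilson 95% interval 58.5 to 81.6) and 98.2% in the second (90.6 to 99.7). Between these captures of 1 stage Notch2 was lower by 1.33 on the log2 scale in the first, and 7.59% of the 12313 genes compared had a lower value still.

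Notch3, a receptor known from the smooth muscle and pericytes of vessels, was lower and patchier. Capture means of Notch3 were 2.38 RPKM (E10.5), 2.50 and 1.29 (E11.5), 0.505 and 1.13 (E12.5), 4.75 and 6.92 (E13.5), and 2.19 and 2.14 (E16.5). The E13.5 captures were above all others, and the E12.5 captures were below all others. Cells at 1 RPKM made up 47.5% of cells at E10.5 and 10% to 39.3% in the later captures.

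Notch1, the receptor known from endothelium and many progenitors, was low on average and found in few cells. By capture, Notch1 averaged 1.36 RPKM (E10.5), 0.610 and 1.23 (E11.5), 0.0194 and 0.378 (E12.5), 0.823 and 1.03 (E13.5), and 0.507 and 1.24 (E16.5). The stages overlapped, apart from E10.5, which was highest, and E12.5, which was lowest. It reached 1 RPKM in 0 of 30 cells of the first E12.5 capture, which allows a share of up to 10%, and in 3.85% to 17.9% of cells in the other captures.

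Jag1, the ligand, had its highest capture mean at E10.5. The means were 37.6 RPKM (E10.5), 12.3 and 7.60 (E11.5), 5.44 and 1.24 (E12.5), 11.8 and 8.86 (E13.5), and 9.45 and 17.5 (E16.5). The E10.5 capture stood above the rest and the E12.5 captures below all others. The share of cells ran otherwise: 30.5% of cells (E10.5), 26.9% and 24.4% (E11.5), 26.7% and 29.7% (E12.5), 50% and 33.9% (E13.5), and 41.9% and 67.6% (E16.5). The 4 latest captures thus had the largest shares of cells with Jag1, while the largest mean came from E10.5, where the 3 highest cells held 66.5% of the summed Jag1.

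Those high E10.5 cells also carried markers of the mesonephros, the transient kidney beside the gonad. Of the 59 cells 10 had at least 2 of 5 listed mesonephric markers, such as Pax2 and Pax8, at 1 RPKM, a rule on the marker list set after the values were seen. Jag1 averaged 195 RPKM in these 10 cells and reached 1 RPKM in 9 of them, against 5.52 RPKM and 9 of the other 49 cells. The 10 cells held 87.8% of the summed Jag1 at E10.5.

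In the same comparison of 10 with 49 cells Heyl averaged 17 against 0.45 RPKM, Notch2 56.8 against 22.7 RPKM and Notch1 3.67 against 0.893 RPKM. Nr5a1 itself was at 0.656 against 15.6 RPKM, Lhx9, a gene of the gonadal ridge, at 0.0324 against 35.2 RPKM, and the eGFP transcript, the reporter used for the sort, at 245 against 772 RPKM. Pax8 reached 1 RPKM in 9 and Pax2 in 8 of the 10 cells. The first E11.5 capture held 4 such cells of 52, with 52 RPKM of Jag1 against 8.94 in its other cells. The reverse held in the second E11.5 capture and in the E12.5 and E13.5 captures, with 1 or 2 such cells each. Jag1 was at 0 in all such cells there, while the other cells of these captures averaged 1.272 to 11.99 RPKM. Without the 20 cells of this kind in all captures, Jag1 was 5.52 RPKM at E10.5, inside the range of the other captures.

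**Figure D3:**
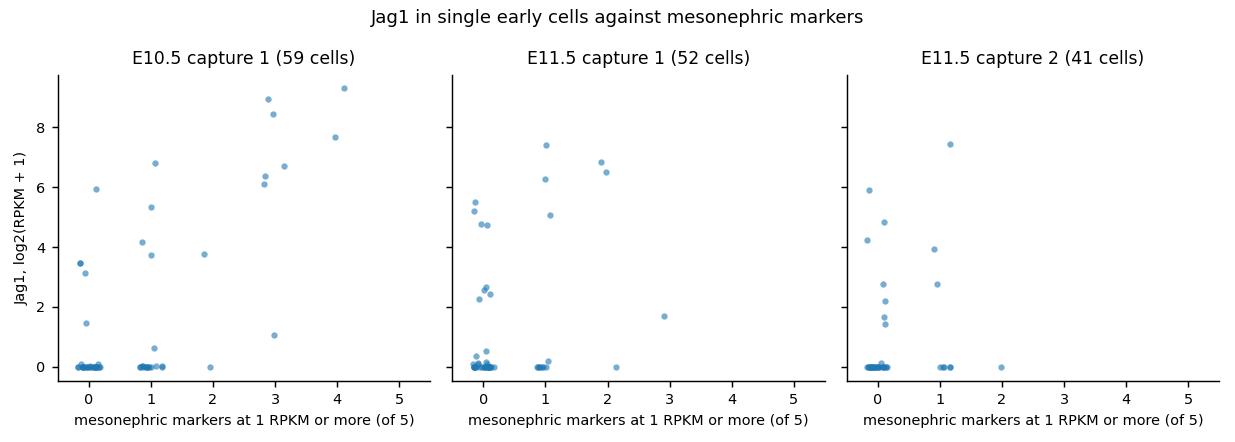
Jag1 in each cell (y axis, log2(RPKM + 1)) against the number of the 5 mesonephric markers at 1 RPKM or more in that cell (x axis), 1 panel for each of the 3 early captures; each point is a cell, moved sideways at random so that points can be told apart. At E10.5 cells with 2 to 4 markers reach up to 631.5 RPKM of Jag1, and 9 of 10 of them are at 1 RPKM or more.

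Hes1, the most widely detected target, was found in most cells. Capture means of Hes1 were 6.96 RPKM (E10.5), 7.58 and 11.7 (E11.5), 6.43 and 12.2 (E12.5), 18.4 and 14.5 (E13.5), and 9.12 and 8.04 (E16.5). The E13.5 captures were above all others, and those of the other stages lay between 6.43 and 12.2 RPKM. The first E16.5 capture had Hes1 at 1 RPKM in 25.8% of cells (13.7 to 43.3), against 63.3% to 86.5% in the other captures.

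Hey1, a repressor known from vessels and heart, was low in the late captures. By capture, Hey1 averaged 4.37 RPKM (E10.5), 5.03 and 12.3 (E11.5), 0.797 and 2.83 (E12.5), 2.48 and 3.87 (E13.5), and 0.0151 and 0.325 (E16.5). The 6 captures from E12.5 on were all below the 3 earlier ones, and the E16.5 captures were lowest. Cells at 1 RPKM made up 15.3% at E10.5 and 15.4% and 31.7% at E11.5. At E16.5 they were 0 of 31 cells, which allows a share of up to 9.68%, and 2.94% of cells.

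Heyl, a related repressor known from smooth muscle, took the other direction in shares of cells. Capture means of Heyl were 3.25 RPKM (E10.5), 2.26 and 4.26 (E11.5), 0.841 and 21 (E12.5), 21.4 and 6.06 (E13.5), and 7.95 and 22.6 (E16.5). The groups before and from E12.5 overlapped only through the first E12.5 capture. The share of cells was 6.78% (E10.5), 5.77% and 4.88% (E11.5), 6.67% and 27% (E12.5), 41.1% and 17.9% (E13.5), and 22.6% and 29.4% (E16.5). The 5 highest shares were all from E12.5 on.

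Nrarp, a small protein that dampens Notch signalling, was above 0 in 12 cells and at 1 RPKM in 7. By capture, Nrarp averaged 0.00429 RPKM (E10.5), 0 and 0.383 (E11.5), 0 and 0 (E12.5), 2.57 and 0 (E13.5), and 0.854 and 0.968 (E16.5). Of the captures 4 were at 0, which in the smallest of them, with 30 cells, allows a share of up to 10%.

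The change across cord formation was tested by comparing 6 late captures, those from E12.5 on, with the 3 early ones (E10.5 and E11.5). The limma fit used log2(capture mean RPKM + 1) over all 12313 genes with a mean of at least 1 RPKM in at least 2 captures, so that fold changes of low genes are understated. Of the 8 members 7 passed this filter and Nrarp did not. None of the 7 was called at an adjusted p of 0.05, against 71 of all genes (0.577%), and 1, Hey1, had an unadjusted p under 0.05, as did 10.9% of all genes. The median log2 fold change of the 7 was -0.34 and that of all genes -0.01.

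Hey1 averaged 1.72 ± 1.56 RPKM in late and 7.22 ± 4.38 RPKM in early captures (SD, n = 6 and 3), a log2 fold change of -1.70 ± 0.59 (SE) with an adjusted p of 0.271 in limma. Late and early captures of Hey1 did not overlap, unlike those of the other members, and how many of all genes separate so was not counted. Without the cells with mesonephric markers, late and early captures of Hey1 overlapped. They then had 0.0151 to 4.01 RPKM in late and 2.29 to 12.6 RPKM in early captures, and the log2 fold change was -1.48 ± 0.62 (adjusted p = 0.395 in limma). The exact two-sided permutation p of Hey1 over the 84 ways to draw the captures was 0.0238, where 0.0119 is the smallest possible. Within the 10 M read run the log2 fold change of Hey1 was -2.36 (adjusted p = 0.442 in limma) and within the 25 M read run -0.38 (adjusted p = 0.976), and the difference between the runs had an adjusted p of 0.999. Over the 21 alternatives the adjusted p of Hey1 lay between 0.0851 and 0.976.

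Heyl averaged 13.3 ± 9.44 RPKM in late and 3.26 ± 1.0 RPKM in early captures, a log2 fold change of 1.33 ± 0.69 (limma adjusted p = 0.524). Without the cells with mesonephric markers it was 2.74 ± 0.71 (adjusted p = 0.112, with 0.103 to 0.864 over the 21 alternatives). Jag1 averaged 9.05 ± 5.54 RPKM in late and 19.2 ± 16.1 RPKM in early captures, with a log2 fold change of -0.96 ± 0.61 (adjusted p = 0.640). Without those cells the Jag1 value was 0.04 ± 0.56 (limma adjusted p = 0.992, with 0.136 to 0.992 over the alternatives). Its sign also turned, to 0.29, with those cells kept and log2 values averaged. The cut of 2 markers was chosen after the data were seen.

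The other members overlapped between late and early captures and had adjusted p-values of 0.672 or more in limma. Notch2 averaged 17.1 ± 7.62 RPKM in late and 24.2 ± 3.78 RPKM in early captures. Notch1 averaged 0.667 ± 0.45 RPKM in late and 1.07 ± 0.402 RPKM in early captures, Notch3 2.94 ± 2.43 RPKM in late and 2.06 ± 0.665 RPKM in early captures, and Hes1 11.4 ± 4.47 RPKM in late and 8.75 ± 2.58 RPKM in early captures. Marker lists of other cell types moved with stage as well: the summed capture mean of the 5 mesonephric markers was 0.00751 to 3.22 RPKM in late and 4.29 to 29.8 RPKM in early captures, and that of the 18 Sertoli markers 851 to 5228 RPKM in late and 110 to 229 RPKM in early captures. Apart from the mesonephric cells, their part in the members' values was not tested.

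No member was called between stages in the limma fit with 5 stages. The background was 48 of 12313 genes (0.39%) for E11.5 against E10.5, 0 genes (0%) for E12.5 against E11.5 and for E13.5 against E12.5, 11 genes (0.0893%) for E16.5 against E13.5, and 131 genes (1.06%) for E13.5 against E10.5. For E16.5 against E11.5 it was 187 genes (1.52%), and for any difference among the stages 200 genes (1.62%). In the comparisons with 0 genes called, 961 and 563 genes had an unadjusted p under 0.05. With a single capture, E10.5 was assumed to vary like the later stages.

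Hey1 came nearest to a call, at E16.5 against E11.5, stages of the same run. It had 0.0151 and 0.325 RPKM at E16.5, against 5.03 and 12.3 RPKM at E11.5. The log2 fold change was -2.95 ± 0.71, with a limma adjusted p of 0.0662 and an unadjusted p of 0.00135. With an average of the cells' log2 values Hey1 was called (limma adjusted p = 0.0196), and the adjusted p ran from 0.0196 to 0.404 over the 18 alternatives.

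Among neighbouring stages, with 7 members tested in each comparison, 6 differences had an unadjusted p under 0.05. All had adjusted p-values of 0.505 or more in limma. At that unadjusted p were 6.39% of all genes (E11.5 over E10.5), 7.8% (E12.5 over E11.5), 4.57% (E13.5 over E12.5) and 8.47% (E16.5 over E13.5). For Jag1 the log2 fold change of E11.5 over E10.5 was -1.85 ± 0.76, that of E12.5 over E11.5 was -1.49 ± 0.62 and that of E13.5 over E12.5 was 1.56 ± 0.62. Without the cells with mesonephric markers its value for E11.5 over E10.5 was 0.52 ± 0.78. For Hey1 it was -1.77 ± 0.71 for E12.5 over E11.5 and -1.83 ± 0.71 for E16.5 over E13.5, and for Notch3 1.91 ± 0.64 for E13.5 over E12.5. Apart from E12.5 over E11.5, these comparisons run across the sequencing runs. None of the 6 held up against the number of genes tested.

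The rest of the pathway was read from a list of 55 genes by role, of which 54 are listed in the values and 45 passed the filter. At E16.5 against E11.5, 1 of the 45 was called, against 1.52% of all genes, with a median log2 fold change of -0.13 over the 45 and -0.08 over all genes. Late against early, 0 of 45 were called by limma and 3, Dtx4, Aph1a and Tle3, had an unadjusted p under 0.05, with a median of -0.14. The gene called was Dtx4, a Deltex ubiquitin ligase that acts on Notch turnover. It had 30.2 and 28.8 RPKM (E16.5), against 0.511 and 0.715 RPKM (E11.5), with 2.42 (E10.5), 3.89 and 6.46 (E12.5) and 8.52 and 9.58 (E13.5). The E16.5 captures of Dtx4 were above all others, and each stage from E12.5 on was above the one before it. Its log2 fold change was 4.24 ± 0.56 (limma adjusted p = 0.00269), and it was also called in the test over all stages (adjusted p = 0.0165).

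The highest genes of each role that acts on all receptors were as follows, picked by their level. As capture means with SD over 9 captures, Adam10, the protease of the first activating cut, had 61.9 ± 19.1 RPKM. Snw1 and Crebbp, nuclear cofactors with many other roles, had 95.1 ± 22.6 and 51.5 ± 9.20 RPKM, and Mib1 and Itch, ubiquitin ligases of ligand and receptor, 20.2 ± 5.38 and 16.2 ± 7.82. Poglut1 and Rfng, which add sugars to the receptors, had 19.5 ± 8.43 and 6.20 ± 3.37 RPKM.

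Of the other receptors, ligands and targets, the non-canonical ligand Dlk1 was found most widely. Dlk1 reached 1 RPKM in 160 of 396 cells, against 144 for Jag1, at a mean of 1.86 ± 0.779 RPKM. Notch4 reached 1 RPKM in 9 cells, the ligand Dll1 in 4, and the HES and HEY genes Hes6 in 43 and Hey2 in 12. The remaining ligands of the list, Jag2, Dll3, Dll4 and Dlk2, reached 1 RPKM in 1 to 4 cells each.

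To see which cells hold the members, cells were grouped into 8 clusters on 112 marker genes, none of which is a member. Clusters were named from the markers: Sertoli-like (68 cells), Leydig-like (7), coelomic-epithelium-like (59) and endothelial-like (3). Those left unnamed were cluster 6 (124 cells, led by genes that include the progenitor markers Shisa3 and Gfra3), cluster 7 (10 cells of the second E12.5 capture, led by the germ cell genes Dppa5a, Dppa3 and Dazl), cluster 8 (124 cells, led by Pdlim3, Casq2, Acta2 and Penk) and a cluster of 1 cell. The clusters were built from the same cells, so their levels are described without a test.

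**Figure D4:**
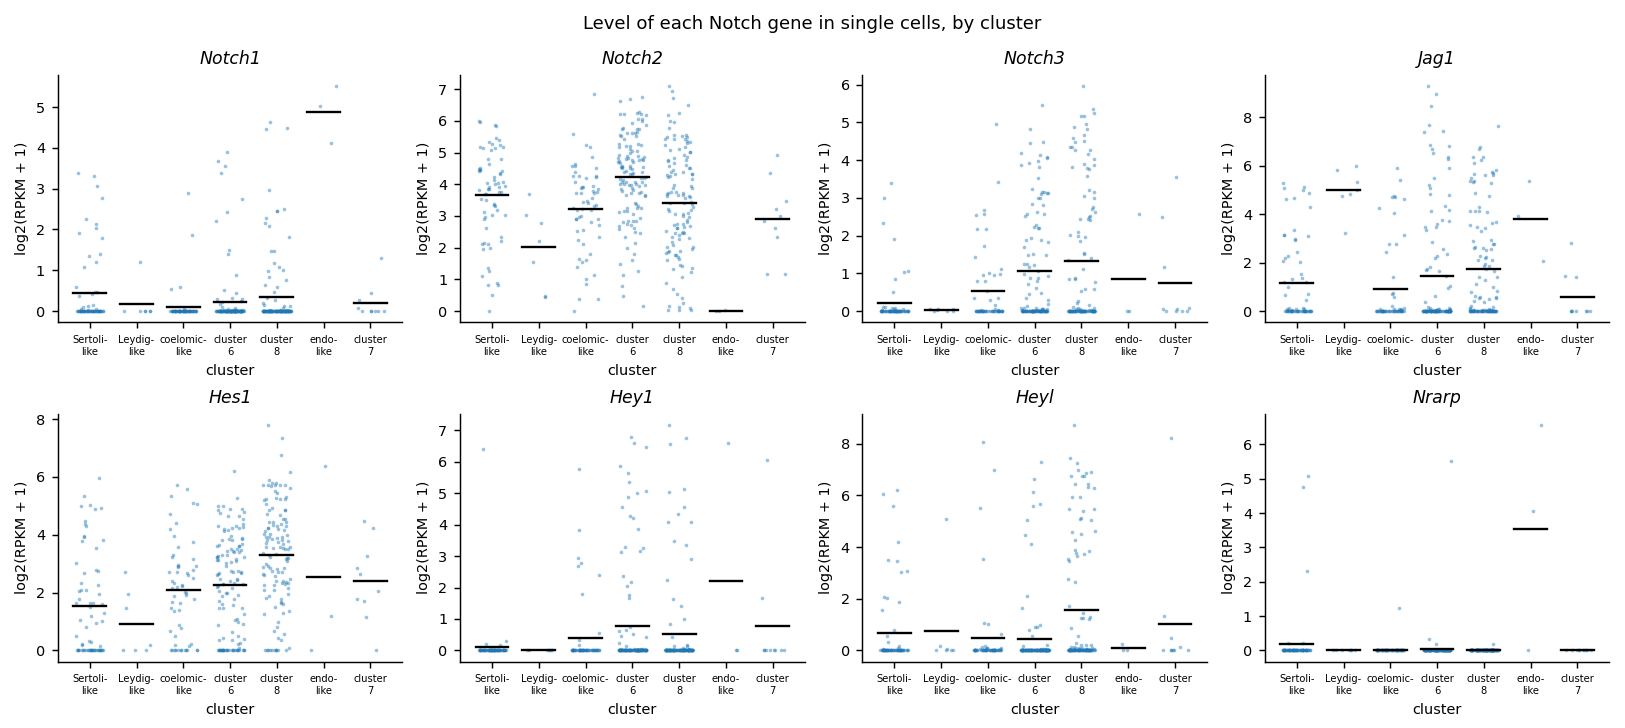
Level in each cell (points, y axis, log2(RPKM + 1), own scale per gene) by cluster (x axis), 1 panel per gene; black bars are means of the log2 values, "coelomic-like" stands for coelomic-epithelium-like, "endo-like" for endothelial-like, and the cluster of 1 cell is not drawn. Notch1 and Nrarp are highest and Notch2 lowest in the 3 endothelial-like cells. The highest single cell of Hes1, Notch3 and Heyl, and also that of Notch2 and Hey1, is in cluster 8.

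Notch1 and Nrarp stood out in the endothelial-like cells. Notch1 had 44.9, 16.4 and 31.7 RPKM in these 3 cells, against a mean of 0.626 RPKM in the other 393. They held 27.4% of the summed Notch1 of all cells and 49.8% of the summed Nrarp, with Nrarp at 15.7, 93.7 and 0 RPKM. Notch2 was the reverse, at 0, 0.0245 and 0 RPKM, against a mean of 19.6 RPKM elsewhere. The 3 cells came from the second E11.5, the first E13.5 and the second E16.5 capture. They had Nr5a1 at 0, 6.49 and 11.1 RPKM and the eGFP transcript at 0, 737 and 1684 RPKM, so the reporter transcript was listed at 0 in the E11.5 cell. Pecam1 and Cdh5, which define endothelium, were at 71.4 RPKM or more in all 3.

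The Leydig-like cells were few. Jag1 was at 1 RPKM or more in 7 of 7, with a lowest value of 8.30, a median of 31 and a highest of 63.3 RPKM. Notch3, Hey1 and Nrarp reached 1 RPKM in 0 of 7 of these cells, which with so few cells allows a share of up to 42.9%. Notch2 had a mean of 4.47 RPKM there, Hes1 1.49 RPKM and Heyl 4.70 RPKM.

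In cluster 6, which holds most E10.5 and E11.5 cells, Notch2 averaged 26.1 RPKM, Jag1 24.1, Hes1 7.89, Hey1 5.31, Heyl 4.05 and Notch3 3.10 RPKM. Of the 10 E10.5 cells with mesonephric markers 9 were in cluster 6. Jag1 in that cluster correlated with the mesonephric list's mean log2 level, centred by capture, at r = 0.503 over 124 cells. This is a description of cells that share captures. In the coelomic-epithelium-like cells Notch2 averaged 13.2 RPKM, Heyl 7.64, Hes1 7.42 and Jag1 4.43 RPKM. In cluster 7 Notch2 averaged 9.20 RPKM and Heyl 30.1, and Heyl was at 1 RPKM in 2 of these 10 cells. In cluster 8 the means were 18.9 RPKM for Notch2, 18.8 for Hes1, 18.5 for Heyl, 12.2 for Jag1 and 5.38 for Notch3.

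Within cluster 8 the Heyl values varied by stage. It was at 1 RPKM in 0 of 12 and 0 of 5 cells in the E11.5 captures, and in 16.7% and 40% of cells in the E12.5, 50% and 22.2% in the E13.5, and 41.7% and 47.1% in the E16.5 captures. Mean Heyl was 2.25 to 40.3 RPKM in the 6 later captures, against 0 and 0.00956 RPKM at E11.5. Jag1 in cluster 8 was 0.477 and 1.59 RPKM (E11.5), 0.191 and 1.90 (E12.5), 14.7 and 14.1 (E13.5), and 15.1 and 24.7 RPKM (E16.5). The E13.5 and E16.5 captures of Jag1 were all above those of E11.5 and E12.5. Only 4 cells of cluster 8 came from E10.5, with Jag1 at 39.7, 0, 68.6 and 0 RPKM, so the order does not extend to that stage. Of these 4 cells 1, with 3 mesonephric markers, had Heyl at 22.9 RPKM and the others had none. Notch3 in cluster 8 lay between 0.00608 and 3.46 RPKM in the E11.5 and E12.5 captures and between 4.21 and 9.15 RPKM in the later ones. These levels were not tested, and the E11.5 captures held 12 and 5 cells of the cluster.

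Sertoli-like cells were compared with cluster 8 in the 4 captures with at least 5 cells of each, the E13.5 and E16.5 captures. They held 20, 10, 17 and 15 Sertoli-like cells and 26, 27, 12 and 17 cells of cluster 8. The limma fit took the capture as a block and left out the marker genes. Of the 8 members 2 were called, both lower in Sertoli-like cells, against 633 of 11472 genes in either direction (5.52%). At an unadjusted p under 0.05 there were 4 members, and 20% of all genes. The median log2 fold change was -1.23 over the 8 members and -0.004 over all genes. Since the clusters were formed from markers of these same cells, the p-values are not independent of the grouping.

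Heyl had 7.29 and 1.01 RPKM in Sertoli-like cells of the E13.5 captures and 0.658 and 5.38 RPKM in those of E16.5, against 28.9 and 10.9 RPKM in E13.5 cells of cluster 8 and 15.5 and 40.3 RPKM in its E16.5 cells. Every Sertoli-like value was below every value of cluster 8. The log2 fold change was -2.61 ± 0.56 (limma adjusted p = 0.0211, lower in 4 of 4 captures). Notch3 had 0.442 and 1.0 RPKM in Sertoli-like cells of the E13.5 captures and 0.412 and 0.0754 RPKM in those of E16.5, against 8.73 and 9.15 RPKM in E13.5 cells of cluster 8 and 5.07 and 4.21 RPKM in its E16.5 cells. The groups did not overlap, with a log2 fold change of -2.37 ± 0.61 (adjusted p = 0.0478, lower in 4 of 4 captures).

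Both calls were thin. With each of the 4 captures left out in turn, Heyl had adjusted p-values of 0.0496 to 0.0929 and was called only without the first E13.5 capture, and Notch3 had 0.11 to 0.15. Without cells that have at least 3 markers of each of 2 classes at 10 RPKM, a rule that 212 of 396 cells meet, limma called no member, and Heyl, Jag1 and Notch3 had an unadjusted p under 0.05. Without the 18 cells that meet a narrower rule, both were called. Over the 14 alternatives the adjusted p of Heyl ran from 0.014 to 0.126 and passed the threshold in 9, and that of Notch3 ran from 0.00227 to 0.318 and passed in 5.

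Hes1 and Jag1 had the same direction and missed the threshold. Hes1 had 8.92 and 8.55 RPKM in Sertoli-like cells of the E13.5 captures and 0.349 and 1.46 RPKM in those of E16.5, against 27.3 and 18.1 RPKM in E13.5 cells of cluster 8 and 23.1 and 14.7 RPKM in its E16.5 cells (log2 fold change -2.33 ± 0.64, limma adjusted p = 0.0619). Jag1 had 6.45 and 1.72 RPKM in Sertoli-like cells of the E13.5 captures and 2.92 and 7.23 RPKM in those of E16.5, against 14.7 and 14.1 RPKM in E13.5 cells of cluster 8 and 15.1 and 24.7 RPKM in its E16.5 cells (-1.81 ± 0.55, adjusted p = 0.0866). As for Heyl and Notch3, neither gene's groups overlapped, and how many of all genes separate in this way was not counted.

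Within the Sertoli-like cells Hes1 was lower in both E16.5 captures than in both E13.5 captures, and it reached 1 RPKM in 5.88% and 40% of cells at E16.5 and in 65% and 80% at E13.5. This was not tested, and stage and sequencing run cannot be told apart here. The median depth of these cells was 2.62 and 2.71 M reads at E16.5, against 7.83 and 8.35 M reads at E13.5. The median depth of cluster 8 cells was 2.33 and 2.52 M reads at E16.5, against 8.12 and 7.74 M reads at E13.5. In these cells Hes1 averaged 18.9 ± 5.92 RPKM at E16.5 and 22.7 ± 6.56 RPKM at E13.5 (SD, n = 2 each). The part of depth was not tested in either group. Hes1 reached 1 RPKM in 58.3% and 94.1% of cluster 8 cells at E16.5 and in 92.3% and 85.2% at E13.5. The first E16.5 capture held 12 cells of cluster 8, and 1 of them had 159.8 RPKM.

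The other 4 members were not called. Notch2 averaged 18.1 ± 7.11 RPKM in Sertoli-like cells and 19.9 ± 11.6 RPKM in cluster 8 (log2 fold change -0.01 ± 0.46, limma adjusted p = 0.995; SD, n = 4 each). Notch1 averaged 1.09 ± 1.29 RPKM in Sertoli-like cells and 0.619 ± 0.275 RPKM in cluster 8 (limma adjusted p = 0.874). Hey1 averaged 2.10 ± 4.20 RPKM in Sertoli-like cells and 2.61 ± 2.64 RPKM in cluster 8 (limma adjusted p = 0.646). Nrarp was at 0.987 ± 1.06 RPKM in Sertoli-like cells and reached 1 RPKM in 3 of these cells, while cluster 8 was near 0 (adjusted p = 0.401).

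**Figure D5:**
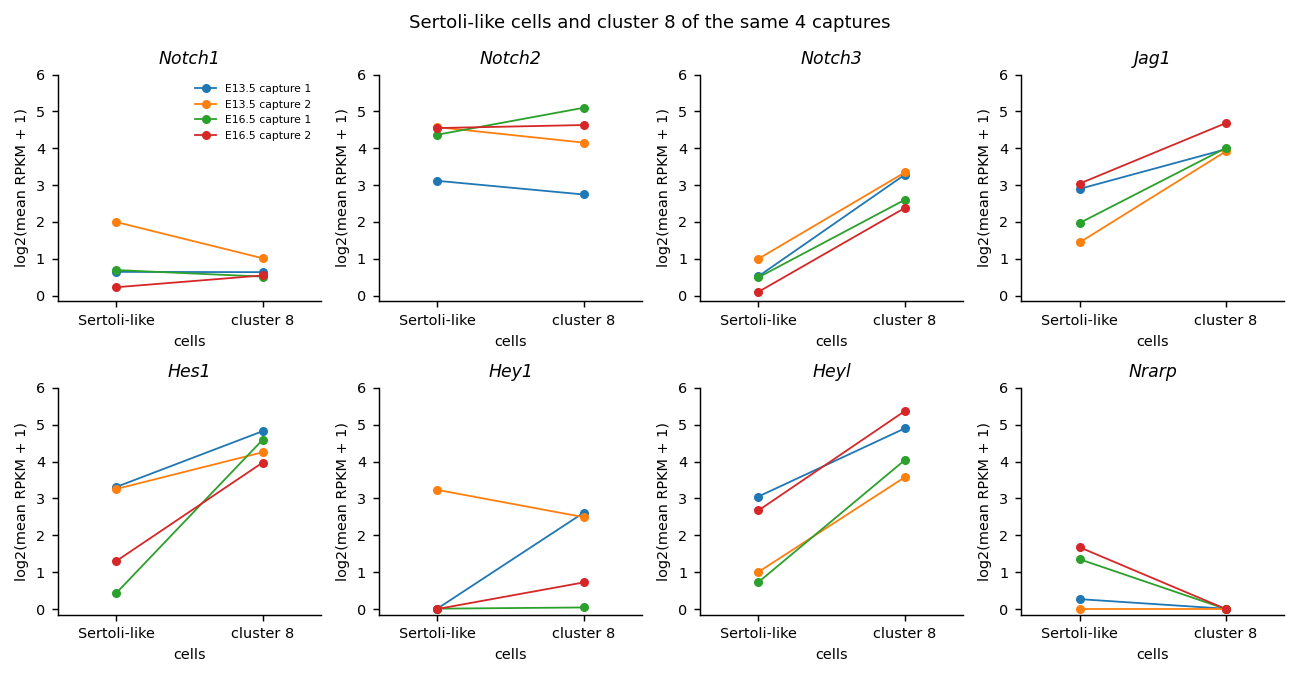
Mean level per capture (y axis, log2(mean RPKM + 1)) in Sertoli-like cells (left) and in cluster 8 (right) for each gene; lines join the values of 1 capture. Heyl, Notch3, Hes1 and Jag1 are lower in Sertoli-like cells in 4 of 4 captures, and for Notch2 the means are 18.1 RPKM in Sertoli-like cells and 19.9 RPKM in cluster 8.

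Over the other pathway genes tested between these groups, 42 in all, the median log2 fold change was -0.10, against -0.004 over all genes.

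Markers of other cell types differed between the groups too. The summed level of the 11 smooth muscle and perivascular markers was 27 to 423 RPKM in Sertoli-like cells and 387 to 2490 RPKM in cluster 8, with 6 of the 11 at 1 RPKM in Sertoli-like cells and 9 in cluster 8. That of the 11 endothelial markers was 1.38 to 13.7 RPKM in Sertoli-like cells and 6.34 to 24 RPKM in cluster 8, with Cldn5 at 0 in both, Tie1 and Flt1 at 0 in Sertoli-like cells and Sox17 at 0 in cluster 8. The interstitial markers summed to 142 to 471 RPKM in Sertoli-like cells and 1440 to 2590 RPKM in cluster 8. Genes known to respond to dissociation of tissue summed to 1060 to 2150 RPKM in Sertoli-like cells and 1950 to 4050 RPKM in cluster 8. Their part in the difference of the members was not tested. Correlations over the 124 cells of cluster 8 used the mean log2 level of a list, centred by capture. With the smooth muscle and perivascular list they were 0.031 for Notch3 and -0.055 for Heyl. With the endothelial list Notch3 was at 0.3.

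Members were combined in most cells. Of the 396 cells 4 had no member at 1 RPKM, 45 had 1, 147 had 2, 110 had 3 and 90 had 4 or more. A cell had 2.72 members on average, and capture means lay between 2.10 and 3.07. Of the 144 cells with Jag1 142 (98.6%) also had a receptor, and of all 396 cells 14 (3.54%) had none.

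Correlations between members over cells were weak, and are given as descriptions of 396 cells that share captures, after centring on the capture mean. The highest was 0.257, between Notch1 and Jag1. Of the 45 cells with Notch1 33 (73.3%) also had Jag1, which is 22.9% of the 144 cells with Jag1, and the correlation was positive in 6 of 9 captures. Jag1 and Heyl followed, with r = 0.238. They were found together in 44 cells, 30.6% of those with Jag1 and 62% of those with Heyl, and the value was 0.261 within the Sertoli-like cells, 0.268 within the coelomic-epithelium-like cells, 0.236 within cluster 6 and 0.253 within cluster 8. Each receptor had a low positive value with Heyl over all cells, 0.198 for Notch1, 0.176 for Notch2 and 0.091 for Notch3. For Notch3 and Heyl the value was -0.048 within cluster 8 and -0.039 within cluster 6. It was 0.183 within the Sertoli-like and 0.275 within the coelomic-epithelium-like cells. Jag1 and Hes1 were at 0.023.

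Of 7131 genes searched, those most like each member over the 396 cells were named by the same centred correlation. Notch3 was closest to Col1a2 (r = 0.307), a collagen chain, Efna5 (0.3) and Vcan (0.297). Heyl was closest to Pdgfrb (0.285), a receptor of perivascular cells, Col4a1 (0.277), a basement membrane collagen, and Ndrg2 (0.251). Hes1 was closest to Hoxd8 (0.268), Itih5 (0.268) and Tcf21 (0.265), a transcription factor of gonadal mesenchyme. Jag1 was closest to Stc1 (0.264), Osr2 (0.251) and Heyl itself.

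The other members followed. Notch2 was closest to Vcan (0.214), Sema5a (0.202) and Osr2 (0.196), Notch1 to Jag1, Lamc1 (0.225) and Tubb2a (0.220), Hey1 to Pdyn (0.206), Maged2 (0.189) and Dcun1d4 (0.189), and Nrarp to Fez2 (0.228), Abcg1 (0.216) and S1pr1 (0.215). None of the 8 members correlated with the number of genes detected in a cell beyond 0.073 in size.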

How the data were processed

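Single-cell libraries were made on Fluidigm C1 chips with the SMARTer and Nextera XT kits and read as 100 bp pairs, per the labels' protocols. The deposited table gives RPKM per cell as made by the authors, a unit read from the values since no header names it. The builds GRCm38.p3 and mm10 are named by the submitters' processing notes, while for the aligner, the counting tool and the annotation a name is not given in the sources used here. Of the 435 labelled cells 400 are in the values, and the other 35 were not used here. Low values, up to 20 reads, came out as whole reads within 0.05 for 68.7% of values in the median cell, too few to recover counts, so depths are implied ones (1.08 to 13.0 M reads per cell, median 3.63 M).

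A minimum of 3000 detected genes removed 3 cells. Wells 49 and 56 in the second capture of E12.5 correlated at 0.998, against 0.701 for the next pair, and were averaged. Capture means were fitted as log2(mean RPKM + 1) with limma 3.58.1 in R 4.3.3 (trend, robust empirical Bayes), for genes that averaged 1 RPKM or more in 2 captures, with Benjamini-Hochberg adjustment over all genes tested and a threshold of 0.05. The scripts were tested on simulated data. Ward linkage on scaled log2 values of 112 markers, of 122 listed, gave 8 clusters, and possible doublets were kept. In the comparison of Sertoli-like cells with cluster 8 the capture pairs the groups, since both come from the same captures, and is a block. Replicate numbers of different stages do not pair captures. Wilson intervals are at 95%, and limits at 0 are 3 divided by the number of cells in the group, as a percentage. Other tools were Python 3.11.15, pandas 2.3.3 and scipy 1.17.1. Symbols were matched to GENCODE M21 (15900 found).

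The members and lists were chosen with earlier results of these data known. The text names all 8 members, pathway genes called in a comparison, the 2 highest pathway genes of each role and the 3 genes most like each member (mean of at least 5 RPKM, at 1 RPKM in 10% of cells). Some results that this rule covers are not reported here. Alternatives were the pseudocount, the filter, scaling by median ratios, averages of log2 values, cell filters, cluster number, run and each capture left out. The removal of cells with 2 mesonephric markers and the narrower doublet rule were added after the data were seen.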

Additional observations from a re-analysis of the deposited data

Results flagged for a closer look

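Of 32 groups of capture values examined, 4 had a capture that stood far from the others, where chance gives about 1 in 20. The groups were each member's mean and share of cells over the late captures, and its means in Sertoli-like cells and in cluster 8. All 4 found were groups of 4 captures in Sertoli-like cells or in cluster 8. Notch1 in Sertoli-like cells was 2.995 RPKM in the second E13.5 capture and at most 0.620 RPKM in the other 3. Hey1 in Sertoli-like cells was 8.39 RPKM in that same capture, from 1 of its 10 cells, and at most 0.00759 RPKM in the other 3. Jag1 in cluster 8 was 24.7 RPKM in the second E16.5 capture and at most 15.1 RPKM in the other 3. Nrarp in cluster 8 was 0.00483 RPKM in the first E13.5 capture and 0 in the others, from which any value above 0 stands apart by the rule used.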

How the results depend on the processing

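Counts of members called over all cells kept their main value of 0 under every alternative run, except that averaging log2 values called 1 member, Hey1, at E16.5 against E11.5. The number of all genes called moved more: late against early it was 71 in the main fit and 0 to 421 over the settings. Between Sertoli-like cells and cluster 8 the main fit called 2 members. It called 1 with a pseudocount of 0.1 or of 5 or with at least 3 cells per capture, 0 (limma, with 4 members at an unadjusted p under 0.05) without the filter or (with 3 such members) without cells with markers of 2 classes, and 0 to 1 with a capture left out. The fit with averaged log2 values called 3 members. Without the replicate block (the capture) it called 2. A cell had 2.72 members at 1 RPKM, 3.53 above 0 and 1.95 at 5 RPKM. Signs turned for values that passed no threshold, and the cause was not tested. Late against early, averaging log2 values gave -0.046 for Hes1, 0.0089 for Notch1, 0.29 for Jag1 and -0.062 for Notch3, the 10 M read run gave -0.10 for Hes1 and -0.25 for Notch3, and Notch3 ran from -0.080 to 0.40 with a capture left out. Without cells with mesonephric markers Jag1 was 0.041 late against early, 0.52 at E11.5 against E10.5 and 0.82 at E13.5 against E10.5, and the last was 0.013 with averaged log2 values. In Sertoli-like cells against cluster 8, Notch2 was 0.0043 with a pseudocount of 0.1, 0.16 with averaged log2 values, 0.0018 with 10 clusters and -0.15 to 0.24 with a capture left out, and Hey1 was 0.32 without cells with markers of 2 classes.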

Other observations

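Dlk1, a non-canonical ligand, was lower in Sertoli-like cells than in cluster 8 in 4 of 4 captures, at 0.145 to 0.793 RPKM in Sertoli-like cells against 1.41 to 3.55 RPKM in cluster 8 (log2 fold change -1.28 ± 0.59, limma adjusted p = 0.254). Dtx1, a further Deltex gene, was higher in 4 of 4 captures, at 0.461 to 15.7 RPKM in Sertoli-like cells against 0.00145 to 0.832 RPKM in cluster 8 (log2 fold change 1.76 ± 0.70, limma adjusted p = 0.189). Both genes were picked after their values were seen.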
